A study of Mus musculus with 18 samples.

Results

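The genes described here are Cxcl1, Cxcl2, Cxcl3, Cxcl5 and Ppbp, the mouse genes of chemokines that attract neutrophils, and Cxcr2, the gene of the receptor they share. They were chosen by symbol, with earlier results of these data known, so their counts beside all genes below are descriptions. They make up 6 of the 35405 genes in the deposited table. All 6 were present and all 6 were among the 20855 genes left by a filter on low counts. That filter could be passed through the TNBS and IBC groups alone, and Cxcl2 and Cxcl3 had counts in only 1 vector library each. Polyadenylated RNA of mouse colon was sequenced in 18 libraries of 3 groups, with 6 libraries in each. The groups are TNBS (trinitrobenzene sulfonic acid, a hapten given to induce colitis), IBC (isobavachalcone, a plant chalcone) and vector, which the table calls control. The series title places isobavachalcone in TNBS colitis of a Crohn's disease-like form and names the receptor GPR84 with the PI3K and AKT kinases. Whether the IBC animals also received TNBS is not stated in the labels, which give no dose, time, strain, genotype, sex or age. Nor do they state that each library is a separate animal, so p-values measure the spread between libraries, part of which may be technical.

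Chemokines of this kind carry a glutamate-leucine-arginine motif before their first paired cysteines and signal through CXCR2, a receptor coupled to G proteins on neutrophils. In the inflamed gut, epithelium, stromal cells and myeloid cells make them after interleukin-1, tumour necrosis factor or interleukin-17 have acted, and the gradient draws neutrophils out of the blood into the mucosa. The transcription factor NF-kB drives several of the genes, and their transcripts are short-lived because AU-rich elements in the untranslated tail attract decay factors. Ppbp differs in origin: it encodes platelet basic protein, which megakaryocytes load into platelet granules and which proteases trim into a CXCR2 ligand.

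The 5 ligand genes lie together on chromosome 5 of the table, all on the plus strand, within 147 kb and among 10 annotated genes. In the table's order they run Cxcl5 (ENSMUSG00000029371, 90907219 to 90909483), Ppbp (ENSMUSG00000029372, 90916377 to 90917922), Cxcl3 (ENSMUSG00000029379, 90933962 to 90937459), Cxcl1 (ENSMUSG00000029380, 91039100 to 91040974) and Cxcl2 (ENSMUSG00000058427, 91051730 to 91053797). Cxcr2 (ENSMUSG00000026180) lies apart, on chromosome 1 at 74193150 to 74200405, plus strand. The table's genome build is not given in the sources used here, so these positions are not those of the sequences printed next.

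The promoters are shown as a description of the genes, and whether they bear on the levels across libraries was not tested. RefSeq promoters of build GRCm38.p6 were matched by symbol for 5 of the 6 genes, and the 100 bases just before each start are printed, 5′ to 3′ on the plus strand. Capitals mark matches to the consensus that NF-kB binds, on either strand, and ATAAAA, which is found in many TATA boxes. The stretches are those of Cxcl1 at chr5:90891145-90891244, Cxcl2 at chr5:90903799-90903898, Cxcl3 at chr5:90786001-90786100, Ppbp at chr5:90768418-90768517 and Cxcr2 at chr1:74153894-74153993.
Cxcl1: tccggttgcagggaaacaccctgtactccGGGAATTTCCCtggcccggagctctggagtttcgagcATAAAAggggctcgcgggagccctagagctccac
Cxcl2: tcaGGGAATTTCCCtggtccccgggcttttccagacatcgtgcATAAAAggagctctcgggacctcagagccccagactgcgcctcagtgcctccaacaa
Cxcl3: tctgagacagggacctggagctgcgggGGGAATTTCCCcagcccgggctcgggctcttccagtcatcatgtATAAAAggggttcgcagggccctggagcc
Ppbp: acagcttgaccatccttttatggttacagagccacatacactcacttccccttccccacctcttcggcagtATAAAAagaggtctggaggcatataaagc
Cxcr2: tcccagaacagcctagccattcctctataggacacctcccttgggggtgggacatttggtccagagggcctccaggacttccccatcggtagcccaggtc

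The NF-kB consensus (3 G, a purine, any base, A or T, 2 pyrimidines, 2 C) was matched by the same letters, GGGAATTTCC, in Cxcl1, Cxcl2 and Cxcl3, beginning 71, 97 and 73 bases before the start. One base further on, the opposite strand matched as well, so the capitals run on by that base. A match on either strand of the 250 bases before the start was found in 1014 of 27025 RefSeq promoters, or 3.75%, and in neither Ppbp nor Cxcr2. ATAAAA began 21 to 60 bases before the start, on the gene's strand, in 4 of the 5 genes, with Cxcr2 the exception, and in 749 of the 27025 promoters, or 2.77%. That window and the form of the NF-kB consensus were chosen after these sequences had been seen. Both occurred together in 27 of the 27025 promoters (0.0999%), Cxcl1, Cxcl2 and Cxcl3 among them, where 27, 30 and 34 bases lay between the first match and ATAAAA. A match of letters is a description of the promoter and not evidence that a factor binds there.

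The untranslated tails are shown for the AU-rich pentamer ATTTA, counted on the transcript strand, overlapping copies included, in the longest annotated 3′ untranslated region of each gene in GENCODE M21 (GRCm38). A window of 30 bases with the densest pentamers, in capitals, is printed for 3 ligand genes and for Ppbp as a contrast. The windows are those of Cxcl1 at chr5:90892607-90892636, Cxcl2 at chr5:90905328-90905357, Cxcl3 at chr5:90787636-90787665 and Ppbp at chr5:90769610-90769639, all on the plus strand.
Cxcl1: tcctATTTATTTAtgtATTTATTTAttcca
Cxcl2: ATTTATTTAtctatgtATTTATTTATTTAt
Cxcl3: gcatcttATTTAatgtttATTTAatatcaa
Ppbp: ttgcaacctgcaATTTAtggtctatttctg

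Cxcl1 held 7 pentamers in 592 bases, which is 11.8 per kb, and 99.5% of 19925 genes with such a region were at or below that density. Cxcl2 held 11 in 1494 bases (7.36 per kb, 97.5% of genes at or below) and Cxcl3 held 5 in 645 bases (7.75 per kb, 97.9%). Cxcl5, with 5 in 1111 bases, was less dense at 4.50 per kb (90.2%). Ppbp had 1 in 656 bases (1.52 per kb) and Cxcr2 had 2 in 1818 bases (1.10 per kb), close to the median of all genes, 1.35 per kb. The tails therefore set Cxcl1, Cxcl2 and Cxcl3 apart from Ppbp and Cxcr2 by sequence alone.

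**Figure D1:**
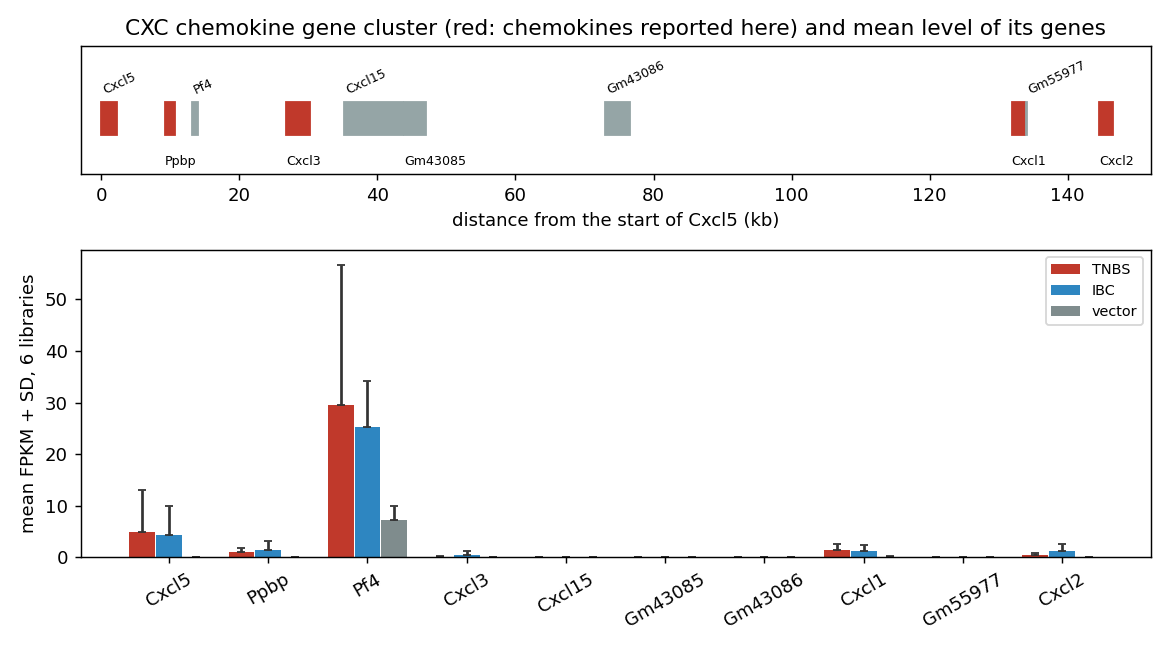
Upper panel: the gene cluster that holds the 5 ligand genes, drawn to scale by distance in kb from the start of Cxcl5, with the ligand genes described here in red and other genes in grey. Lower panel: mean FPKM of each gene in TNBS, IBC and vector libraries, with 1 SD above the mean (n = 6 each); Pf4 had the highest mean in all 3 groups, and the vector bars of the 5 ligand genes are close to 0.

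Per library, between 55.7 and 78.9 (in 1e6) counts were assigned to genes. Transcripts of colon epithelium were present throughout, with 10 marker genes summing to 11588 to 25466 counts per 1e6 counts (CPM) in TNBS, 11729 to 24880 CPM in IBC and 14838 to 28698 CPM in vector libraries. The libraries also differed along the colon: 12 expressed the posterior homeobox gene Hoxb13 at 123 to 598 CPM and 6 at 1.44 CPM or less. The 6 low libraries are TNBS 2 and 3, IBC 2 and 5, and vector 3 and 4, so each group holds 4 high and 2 low libraries. Results are given for both sets below where they bear on a comparison.

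Of the ligands, Cxcl1 (also called KC), an early neutrophil attractant made by epithelium, stroma and macrophages, was the only one with counts in every library. It ranged from 0.760 to 6.83 CPM (median 2.92) in TNBS libraries, from 0.575 to 7.02 CPM (median 1.27) in IBC libraries and from 0.232 to 0.552 CPM (median 0.323) in vector libraries. Every TNBS library and every IBC library lay above every vector library, while TNBS and IBC libraries overlapped over most of their range. Means were 3.30 ± 2.61 CPM in TNBS, 2.24 ± 2.41 CPM in IBC and 0.337 ± 0.114 CPM in vector libraries (SD, n = 6 each). For TNBS against vector the fitted log2 fold change was 3.28 ± 0.66 (SE), with a 95% interval of 1.91 to 4.66 and an edgeR adjusted p of 0.0902. Against vector, IBC gave 2.73 ± 0.64 (SE; 1.38 to 4.08; adjusted p = 0.213). Neither passed the threshold of 0.05, so the separation of the groups is given as a description. In bulk tissue such as this, fewer cells of a type and less RNA per cell cannot be told apart.

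Cxcl2 (also called MIP-2), made mainly by macrophages and other myeloid cells, was nearly absent from vector libraries. It ranged from 0.0975 to 2.91 CPM (median 1.36) in TNBS libraries, from 0.0431 to 7.19 CPM (median 1.60) in IBC libraries and from 0 to 0.0790 CPM in vector libraries. Those levels rest on 6 to 157 counts in TNBS, 3 to 518 counts in IBC and, in vector, on 5 counts in vector 3 with none in the other 5 libraries. All TNBS libraries lay above all vector libraries, and 5 of 6 IBC libraries did, since IBC 4 at 0.0431 CPM lay below vector 3. Means were 1.33 ± 1.11 CPM in TNBS, 2.57 ± 2.82 CPM in IBC and 0.0132 ± 0.0322 CPM in vector libraries (SD, n = 6 each). The fitted log2 fold change was 6.49 ± 1.32 for TNBS against vector (SE; edgeR adjusted p = 0.0903) and 7.44 ± 1.34 for IBC against vector (adjusted p = 0.125). With a vector mean this close to 0, the size of these fold changes depends on the small count the fit adds and is no measured ratio. A single fragment may be worth more than 1 count in this table: over genes and libraries a count of 1 occurred 17273 times, 2 occurred 13316 times, 3 occurred 9977 times, 4 occurred 19961 times and 5 occurred 6358 times.

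Cxcl3, a near relative of Cxcl1 and Cxcl2, was the least abundant ligand by mean FPKM (fragments per kilobase and per 1e+06 fragments) in each group. It ranged from 0 to 1.39 CPM (median 0.715) in TNBS libraries, from 0 to 6.80 CPM (median 0.611) in IBC libraries and from 0 to 0.0714 CPM in vector libraries. TNBS 6, IBC 2 and 5 of 6 vector libraries had no count, and vector 6 had 4. TNBS and IBC libraries therefore overlapped the vector libraries through 1 library each. Means were 0.665 ± 0.528 CPM in TNBS, 1.78 ± 2.61 CPM in IBC and 0.0119 ± 0.0292 CPM in vector libraries (SD, n = 6 each). The fitted log2 fold changes, subject to the same limit as those of Cxcl2, were 5.73 ± 1.49 for TNBS against vector (SE; edgeR adjusted p = 0.113) and 7.15 ± 1.53 for IBC against vector (adjusted p = 0.191). Cxcl1, Cxcl2 and Cxcl3 resemble each other in sequence, and how reads that match more than 1 of them were counted is not given in the sources used here.

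Cxcl5 (also called LIX), a ligand known mainly from epithelial cells, had the widest range of the 6 genes. It ran from 0.621 to 53.7 CPM (median 3.22) in TNBS libraries, from 0.0647 to 25.7 CPM (median 3.57) in IBC libraries and from 0 to 0.177 CPM (median 0.0989) in vector libraries. TNBS 5 at 53.7 CPM stood far above the next TNBS library at 9.17 CPM, and IBC 1 and IBC 6 followed it at 25.7 and 14.7 CPM. All TNBS libraries lay above all vector libraries, whereas IBC 2 at 0.0647 CPM lay among the vector libraries. Means were 11.8 ± 20.8 CPM in TNBS, 8.03 ± 10.3 CPM in IBC and 0.0969 ± 0.0638 CPM in vector libraries (SD, n = 6 each). The fitted log2 fold change was 6.88 ± 1.48 for TNBS against vector (SE; edgeR adjusted p = 0.0909) and 6.32 ± 1.45 for IBC against vector (adjusted p = 0.213). Leaving out each library in turn moved the first of these between 5.12 and 7.16.

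Ppbp, the platelet chemokine gene, ranged from 0 to 3.03 CPM (median 0.934) in TNBS libraries, from 0.0647 to 3.87 CPM (median 0.965) in IBC libraries and from 0 to 0.219 CPM in vector libraries. It was without counts in TNBS 6 and in 4 of 6 vector libraries, and vector 1 reached 0.219 CPM, so TNBS and IBC libraries both overlapped the vector libraries. Means were 1.24 ± 1.17 CPM in TNBS, 1.64 ± 1.71 CPM in IBC and 0.0450 ± 0.0877 CPM in vector libraries (SD, n = 6 each). The fitted log2 fold change was 4.71 ± 1.27 for TNBS against vector (SE; edgeR adjusted p = 0.125) and 5.11 ± 1.29 for IBC against vector (adjusted p = 0.246). Its neighbour Pf4, platelet factor 4, averaged 25.9 ± 27.6 CPM in TNBS, 19.1 ± 5.88 CPM in IBC and 5.78 ± 1.97 CPM in vector libraries. For Pf4 the log2 fold change of TNBS against vector was 2.16 ± 0.51 (SE; edgeR adjusted p = 0.0939).

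Markers of platelets and red blood cells were counted beside Ppbp. Of 12 platelet and megakaryocyte genes 7 were tested in TNBS against vector, 1 of them, Pf4, was higher at an unadjusted p under 0.05, where 10.4% of all tested genes were, and the median log2 fold change was -0.08. Gp6, the platelet collagen receptor, averaged 0.217 ± 0.270 CPM in TNBS, 0.173 ± 0.237 CPM in IBC and 0.602 ± 0.624 CPM in vector libraries (SD, n = 6 each). The summed level of the 12 genes, most of it Pf4, was 9.50 to 87.2 CPM in TNBS, 16.8 to 41.2 CPM in IBC and 7.91 to 21.4 CPM in vector libraries. Some defining genes were mostly without counts, namely Gp9 in 15 of 18 libraries and Tubb1 in 14. The 6 red blood cell genes summed to 57.2 to 171 CPM in TNBS, 19.4 to 197 CPM in IBC and 130 to 277 CPM in vector libraries, and 5 of 5 tested had an unadjusted p under 0.05 with a lower level in TNBS than in vector, where 7.32% of all tested genes did. The part of blood left in the tissue in the Ppbp values was not tested.

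Cxcr2, the receptor gene and in the gut chiefly a transcript of neutrophils, ranged from 0.130 to 4.73 CPM (median 0.707) in TNBS libraries, from 0 to 5.87 CPM (median 1.57) in IBC libraries and from 0 to 0.219 CPM (median 0.0569) in vector libraries. IBC 6, IBC 1 and TNBS 5 were highest, and TNBS 4, IBC 2 and IBC 5 lay within the vector range. Means were 1.49 ± 1.80 CPM in TNBS, 2.44 ± 2.63 CPM in IBC and 0.0742 ± 0.0748 CPM in vector libraries (SD, n = 6 each). The fitted log2 fold change was 4.29 ± 1.22 for TNBS against vector (SE; edgeR adjusted p = 0.140) and 5.00 ± 1.24 for IBC against vector (adjusted p = 0.241). Cxcr1, the other receptor of this kind, was without counts in 13 of 18 libraries, among them all 6 TNBS libraries, and was not tested.

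**Figure D2:**
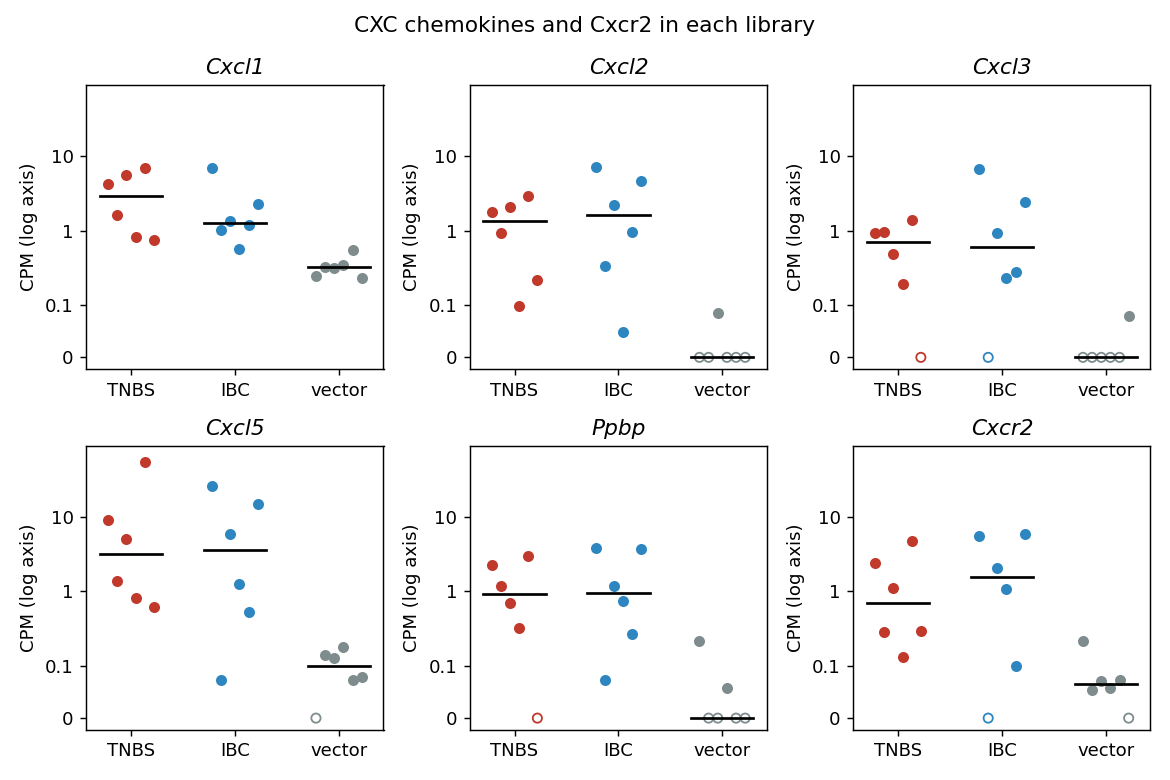
CPM of each of the 6 genes in every library on a log axis, with TNBS, IBC and vector libraries from left to right. Bars are group medians. Libraries with no count are open circles at an arbitrary height labelled 0, and medians of 0 are drawn there. Most TNBS and IBC points lie above the vector points, and the spread within TNBS and within IBC spans more than a factor of 10 for Cxcl5.

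Set against vector, TNBS libraries held more of all 6 transcripts, with fitted log2 fold changes from 3.28 for Cxcl1 to 6.88 for Cxcl5. None passed the adjusted threshold: 0 of 6 members were called by edgeR, where 0.0192% of all tested genes were. At an unadjusted p under 0.05 all 6 were higher, the largest p being 0.00234 for Cxcr2 and the smallest 8.63e-05 for Cxcl1, where 10.4% of all tested genes were higher at that threshold. In 3 of 6 members, Cxcl1, Cxcl2 and Cxcl5, every TNBS library lay above every vector library, a pattern held by 0.432% of tested genes. For Cxcl2 it rests on TNBS 4 with 6 counts (0.0975 CPM) against vector 3 with 5 counts (0.0790 CPM). DESeq2 called 6 of 6 members and 560 genes, against the 4 genes called by edgeR. Without TNBS 6, the library with the least ligand RNA of its group, edgeR called 5 of 6 members (all but Cxcr2) and 323 genes.

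IBC libraries also held more of all 6 transcripts than vector libraries, with fitted log2 fold changes from 2.73 for Cxcl1 to 7.44 for Cxcl2. Again 0 of 6 members were called by edgeR, where 0% of all tested genes were, and DESeq2 called 6 of 6 members and 196 genes. At an unadjusted p under 0.05, 6 of 6 were higher, with p-values from 2.70e-05 for Cxcl2 to 0.000872 for Ppbp, against 4.9% of tested genes. Every IBC library lay above every vector library for 1 of 6 members, Cxcl1, against 0.446% of tested genes. Without IBC 2, the library that held no Cxcl3 or Cxcr2, this count was 4 of 6, against 1.24% of tested genes. The comparison shares the vector libraries with that of TNBS against vector, so the likeness of the fold changes is no independent result.

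Between IBC and TNBS no difference could be told from the spread. The fitted log2 fold changes were -0.56 ± 0.59 for Cxcl1 (SE; 95% interval -1.80 to 0.69), 0.95 ± 0.92 for Cxcl2 (-0.98 to 2.88) and 1.422 ± 1.06 for Cxcl3 (-0.81 to 3.65). They were -0.55 ± 1.10 for Cxcl5 (-2.86 to 1.75), 0.40 ± 1.02 for Ppbp (-1.75 to 2.54) and 0.71 ± 1.01 for Cxcr2 (-1.419 to 2.84). Signs were mixed, with 4 of 6 members positive, and adjusted p-values from edgeR ran from 0.925 for Cxcl2 and Cxcl3 to 0.9748 for Ppbp. The count of members called was 0 of 6, where 0% of tested genes were, and at an unadjusted p under 0.05 it was 0 of 6, where 3.93% of tested genes were, 1.71% of them higher and 2.22% lower. DESeq2 called 0 of 6 members and 6 genes. The intervals of Cxcl5, Ppbp and Cxcr2 hold 2-fold differences in both directions, so these values do not show that the groups were alike. Without TNBS 5 the Cxcl5 value turned to 1.24, and without IBC 1 or IBC 6 the Ppbp value turned to -0.059 or -0.017.

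**Figure D3:**
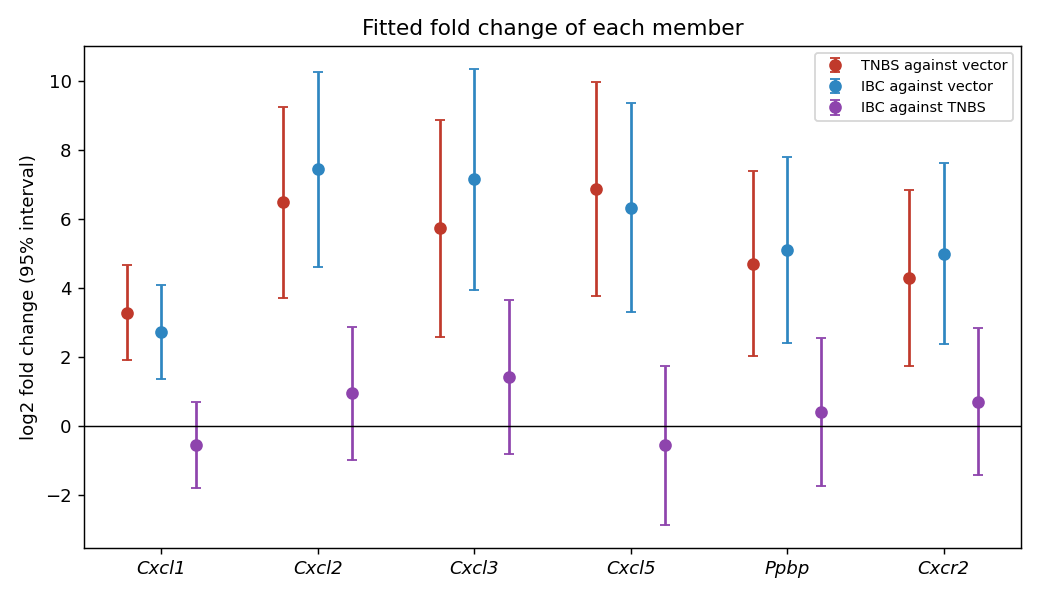
Fitted log2 fold change of each of the 6 genes with its 95% interval in TNBS against vector (red), IBC against vector (blue) and IBC against TNBS (purple), all from 1 fit of 18 libraries. All 12 intervals of the comparisons with vector lie above 0, although no adjusted p passed the threshold, and all 6 intervals of IBC against TNBS include 0.

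For 5 of 6 members the difference of mean log2 CPM between IBC and TNBS had opposite signs in libraries high and low in Hoxb13. For Cxcl5 the sign in the high set depended on the measure, since mean CPM there was 11.9 in IBC and 16.1 in TNBS. Within the 8 TNBS and IBC libraries high in Hoxb13, the difference of mean log2 CPM was -0.13 for Cxcl1, 1.27 for Cxcl2, 2.21 for Cxcl3, 0.86 for Cxcl5, 1.87 for Ppbp and 1.75 for Cxcr2. Within the 4 low libraries it was -1.416, -1.22, -2.90, -3.53, -2.48 and -3.27 in the same order of genes. Here neither IBC library exceeded the higher TNBS library for any of the 6 genes. Shares over all tested genes were not computed for this count or for the opposite signs, and the 6 genes varied together across libraries. The gap between the sets was tested as an interaction across all genes, and 0 of 6 members were called, where 2 of 20855 genes (0.00959%) were. In that fit the largest value among the members was that of Cxcr2, 4.68 ± 1.91 on the log2 scale (SE; edgeR adjusted p = 0.895). With 2 libraries per group in the low set, the values describe these libraries.

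Against vector, the same split left TNBS above vector in both sets for all 6 genes. The differences of mean log2 CPM for TNBS against vector were 2.57 in the high and 3.08 in the low set for Cxcl1, 4.40 and 4.62 for Cxcl2, and 2.92 and 4.58 for Cxcl3. They were 5.59 and 3.89 for Cxcl5, 3.35 and 4.24 for Ppbp, and 3.35 and 2.80 for Cxcr2. IBC against vector was uneven, with 6.44 in the high and 0.36 in the low set for Cxcl5 and 5.09 and -0.48 for Cxcr2. In the low set, IBC 2 and IBC 5 held 0.0647 and 0.535 CPM of Cxcl5, against 0.126 and 0.177 CPM in vector 3 and vector 4. The interaction for IBC against vector was 6.40 ± 2.47 for Cxcl5 (SE; edgeR adjusted p = 0.341) and 5.54 ± 2.24 for Cxcr2 (adjusted p = 0.365), and 0 of 6 members were called, where 1 of 20855 genes (0.0048%) was. For TNBS against vector the same test called 0 of 6 members and 0% of all tested genes. Other differences of IBC against vector in the high and low sets were 2.45 and 1.66 for Cxcl1, 5.67 and 3.40 for Cxcl2, 5.13 and 1.68 for Cxcl3, and 5.22 and 1.76 for Ppbp. With a score of Hox genes as a covariate, edgeR called Cxcl1, Cxcl2 and Cxcl5 in TNBS against vector (3 of 6, among 125 genes called) and Cxcl2 in IBC against vector (1 of 6, among 42 genes called).

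**Figure D4:**
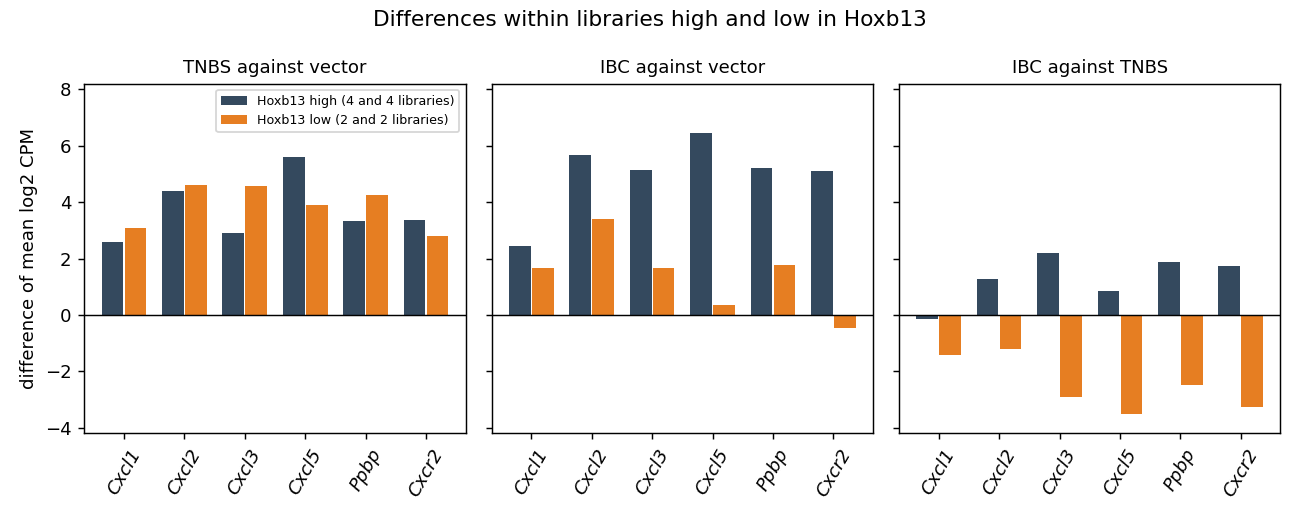
Difference of mean log2 CPM of each of the 6 genes within libraries high in Hoxb13 (dark, 4 against 4 libraries) and low in Hoxb13 (orange, 2 against 2), for TNBS against vector, IBC against vector and IBC against TNBS. The dark and orange bars share their sign in the first panel, and in the last panel all 6 orange bars lie below 0 while 5 of 6 dark bars lie above it.

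The same few libraries were high for every gene. IBC 1 and TNBS 5 were among the top 3 of 18 libraries for 6 of 6 members, IBC 6 for 5 of 6 and TNBS 3 for Cxcl1 alone. Spearman's rho of log2 CPM between members lay between 0.78 and 0.93 over all 18 libraries, which includes the gap between vector and the other groups. Over the 12 TNBS and IBC libraries it still ran from 0.68 for Cxcl1 with Cxcr2 to 0.94 for Cxcl5 with Cxcr2 and Cxcl5 with Ppbp. The points share library, tissue piece and position along the colon, and these values are descriptions.

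In the planned sum of 20 neutrophil genes TNBS 5 was highest, while IBC 1 and IBC 6 lay below TNBS 3 and TNBS 4. A sum that left out Ly6g and Cd177 was not part of the plan, and those libraries ranked otherwise in it. The level of 18 neutrophil genes, Ly6g and Cd177 left out, summed to 320 CPM in TNBS 5, 163 CPM in IBC 1 and 123 CPM in IBC 6, the 3 highest of all libraries. It ranged from 19.6 to 320 CPM (median 65.9) in TNBS, from 13.0 to 163 CPM (median 70.6) in IBC and from 9.05 to 17.1 CPM (median 16.1) in vector libraries. IBC 2 at 13.0 CPM lay within the vector range, as it did for Cxcl5 and Cxcr2. With Ly6g and Cd177, which made up most of the level, the full list of 20 genes gave 218 to 1087 CPM in TNBS, 211 to 565 CPM in IBC and 170 to 454 CPM in vector libraries. The order of libraries differed in that sum: TNBS 5 was still highest, but TNBS 3 (642 CPM) and TNBS 4 (575 CPM) lay above IBC 1 (565 CPM), and IBC 3 (522 CPM) above IBC 6 (509 CPM). Of these genes 16 were tested, and 14 had an unadjusted p under 0.05 with a higher level in TNBS than in vector, where 10.4% of all tested genes did, with a median log2 fold change of 2.93 against -0.01 for all genes. For IBC against vector 12 of 16 did (median 2.64; 4.9% of all tested genes), and for IBC against TNBS none was higher and 1 was lower (median -0.95; 2.22% of all tested genes were lower).

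The 3 neutrophil genes named first here had the smallest unadjusted p of their list in TNBS against vector, so they do not stand for the whole list. S100a9, a subunit of calprotectin, had a median of 3.42 CPM (0.838 to 118) in TNBS, 4.90 CPM (0.437 to 25.4) in IBC and 0.362 CPM (0.130 to 1.13) in vector libraries. Mmp8, the neutrophil collagenase, averaged 2.03 ± 1.99 CPM in TNBS, 1.09 ± 1.11 CPM in IBC and 0.0402 ± 0.0723 CPM in vector libraries (SD, n = 6 each). Il1r2, a decoy receptor for interleukin-1, averaged 4.82 ± 5.46 CPM in TNBS, 2.02 ± 0.918 CPM in IBC and 0.683 ± 0.326 CPM in vector libraries. Their edgeR adjusted p-values for TNBS against vector were 0.0909, 0.0903 and 0.0909. Cd177, of the same list, averaged 212 ± 141 CPM in TNBS, 245 ± 99.4 CPM in IBC and 217 ± 131 CPM in vector libraries. Its log2 fold change of TNBS against vector was -0.03 ± 0.46 (SE), while 15 of the 16 tested genes of the list had a positive one. Primary granule and precursor genes were often without counts, namely Elane in 11, Ngp in 12 and Camp in 12 of 18 libraries. The part of neutrophil number in the chemokine values was not tested.

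The summed level of the 5 ligands per length, in FPKM, was 0.749 to 27.1 (median 4.69) in TNBS, 0.696 to 26.9 (median 3.94) in IBC and 0.144 to 0.299 (median 0.250) in vector libraries. The lowest TNBS and IBC libraries thus still exceeded the highest vector library. Means were 8.11 ± 9.99 FPKM in TNBS, 8.84 ± 10.6 FPKM in IBC and 0.238 ± 0.0624 FPKM in vector libraries (SD, n = 6 each). The make-up varied between libraries. Cxcl1 was the largest ligand in 5 of 6 vector libraries, at 38.9% to 91.2% of the sum, and Ppbp in the other one. In TNBS libraries Cxcl5 led in 3, Cxcl1 in 2 and Ppbp in 1, and in IBC libraries the numbers were the same. Cxcl5 took 21.7% to 77.8% of the sum in TNBS, 4.32% to 52.0% in IBC and 0% to 30.5% in vector libraries. The 3 libraries with most ligand, TNBS 5, IBC 1 and IBC 6, owed 77.8%, 52.0% and 51.2% of it to Cxcl5.

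**Figure D5:**
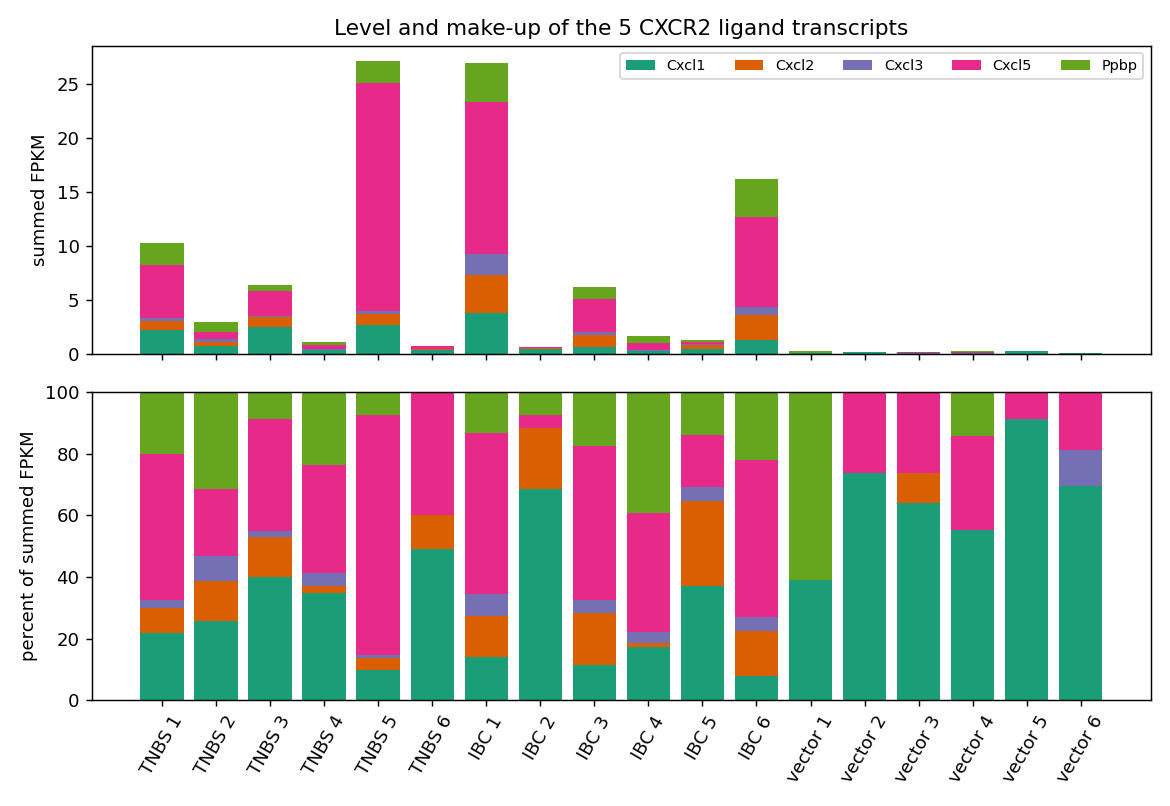
Upper panel: summed FPKM of the 5 ligand transcripts in each library, split by gene, for TNBS, IBC and vector libraries. Lower panel: the same as percent of each library's sum; Cxcl5 (pink) takes the largest part of the tallest bars, and Cxcl1 (green) of 5 of 6 vector bars, whose sums do not exceed 0.299 FPKM.

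By mean FPKM the order in TNBS was Cxcl5 (4.95 ± 8.12), Cxcl1 (1.49 ± 1.10), Ppbp (0.977 ± 0.890), Cxcl2 (0.534 ± 0.427), Cxcr2 (0.406 ± 0.452) and Cxcl3 (0.159 ± 0.122; SD, n = 6). Each exceeded the next in 3, 5, 4, 3 and 4 of 6 libraries, so only the step between Cxcl1 and Ppbp was seen in as many as 5. In IBC the order was Cxcl5 (4.38 ± 5.65), Ppbp (1.53 ± 1.64), Cxcl2 (1.24 ± 1.41), Cxcl1 (1.17 ± 1.33), Cxcr2 (0.814 ± 0.896) and Cxcl3 (0.514 ± 0.761). Neighbours there kept their order in 4, 4, 2, 4 and 3 libraries, and none of these steps exceeds the spread. In vector libraries Cxcl1 led (0.154 ± 0.0588), above the next gene, Cxcl5 (0.0413 ± 0.0302), in 6 of 6 libraries. Ppbp (0.0373 ± 0.0732), Cxcr2 (0.0216 ± 0.0224), Cxcl2 (0.00326 ± 0.00800) and Cxcl3 (0.00280 ± 0.00686) followed near 0, where the order rests on a few counts.

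Upstream signals of the chemokines were counted in a list of 16 cytokines and receptors, 13 of them tested. In TNBS against vector, 7 had an unadjusted p under 0.05 with a higher level and none a lower one, where 10.4% of all tested genes were higher, with a median log2 fold change of 0.60. In IBC against vector 7 did (median 0.63; 4.9% of all tested genes), and in IBC against TNBS none (median 0.04). Il1b, interleukin-1 beta, averaged 11.3 ± 9.18 CPM in TNBS, 13.5 ± 12.3 CPM in IBC and 2.18 ± 1.35 CPM in vector libraries (SD, n = 6 each). Tnf averaged 3.46 ± 2.38 CPM in TNBS, 2.25 ± 1.04 CPM in IBC and 0.811 ± 0.547 CPM in vector libraries. Il1a, which dying cells release, averaged 1.34 ± 0.880 CPM in TNBS, 1.02 ± 0.733 CPM in IBC and 0.222 ± 0.183 CPM in vector libraries. For these genes the log2 fold change of TNBS against vector was 2.38 ± 0.67, 2.09 ± 0.52 and 2.59 ± 0.71 (SE), with edgeR adjusted p-values of 0.138, 0.107 and 0.127. Tnfrsf1a, the main receptor of tumour necrosis factor, averaged 130 ± 32.9 CPM in TNBS, 113 ± 15.3 CPM in IBC and 86.0 ± 15.6 CPM in vector libraries. Il17a was without counts in 10 of 18 libraries and never exceeded 0.454 CPM, so it was not tested.

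Genes that interleukin-17 and NF-kB induce together with these chemokines formed another list. Of 12 tested, 4 had an unadjusted p under 0.05 with a higher level in TNBS than in vector (median log2 fold change 0.40), 2 in IBC against vector (0.15), and 2 were lower in IBC than in TNBS (-0.15). The shares of all tested genes were 10.4%, 4.9% and 2.22% in the same order. Lcn2, lipocalin that binds bacterial siderophores, averaged 14.1 ± 17.5 CPM in TNBS, 6.46 ± 3.48 CPM in IBC and 2.23 ± 0.803 CPM in vector libraries (SD, n = 6 each). Cebpb, a transcription factor of the acute response, averaged 43.1 ± 16.5 CPM in TNBS, 32.0 ± 8.60 CPM in IBC and 22.4 ± 3.85 CPM in vector libraries. Bcl3, an atypical NF-kB inhibitor protein, averaged 65.3 ± 19.6 CPM in TNBS, 40.5 ± 10.1 CPM in IBC and 44.1 ± 15.9 CPM in vector libraries. The log2 fold changes of TNBS against vector were 2.65 ± 0.69, 0.95 ± 0.25 and 0.57 ± 0.24 (SE) for Lcn2, Cebpb and Bcl3, with edgeR adjusted p-values of 0.113, 0.113 and 0.245. Of 9 tested regulators of chemokine mRNA decay, none passed an unadjusted p of 0.05 in TNBS against vector (median 0.05). Of all tested genes 10.4% were higher and 7.32% lower there. In IBC against vector 1 of the 9 was higher at that threshold, where 4.9% of all tested genes were. Elavl1, which stabilises transcripts with AU-rich tails, averaged 74.4 ± 8.48 CPM in TNBS, 67.1 ± 13.1 CPM in IBC and 64.9 ± 5.15 CPM in vector libraries.

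Among granulopoietic growth factors and their receptors, Csf3, the gene of granulocyte colony-stimulating factor, averaged 0.393 ± 0.604 CPM in TNBS and 0.149 ± 0.221 CPM in IBC libraries and was without counts in all 6 vector libraries. It was not tested. Csf3r, its receptor, averaged 6.17 ± 4.36 CPM in TNBS, 9.70 ± 8.55 CPM in IBC and 1.46 ± 0.435 CPM in vector libraries (SD, n = 6 each), and was the 1 of 4 tested genes with an unadjusted p under 0.05 in TNBS against vector, where 10.4% of all tested genes were higher. Of 17 genes that carry the signal below Cxcr2, 2 were higher and 1 lower at that threshold (median 0.14), which is near the 10.4% higher and 7.32% lower among all tested genes. Prex1, a Rac activator of neutrophils, averaged 20.2 ± 3.01 CPM in TNBS, 25.7 ± 5.04 CPM in IBC and 15.0 ± 4.81 CPM in vector libraries. Arrb1, a beta-arrestin that uncouples the receptor, averaged 58.1 ± 18.6 CPM in TNBS, 70.4 ± 12.4 CPM in IBC and 85.2 ± 20.3 CPM in vector libraries. No gene of any of the lists passed the adjusted threshold in any of the 3 comparisons in edgeR.

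Related chemokines and receptors were counted for comparison. Of 12 other chemokines of the CXC, XC and CX3C classes 10 were tested, and 5 had an unadjusted p under 0.05 with a higher level in TNBS than in vector (median log2 fold change 1.12), 4 in IBC against vector (0.77) and none in IBC against TNBS, where 1 was lower (-0.11). Of all tested genes 10.4%, 4.9% and 1.71% were higher in the same order, and 2.22% were lower in IBC than in TNBS. Cxcl10, which attracts T cells through CXCR3, averaged 5.34 ± 7.32 CPM in TNBS, 4.84 ± 2.15 CPM in IBC and 1.02 ± 0.474 CPM in vector libraries (SD, n = 6 each). Cxcl13, which attracts B cells, averaged 42.7 ± 45.4 CPM in TNBS, 19.6 ± 3.30 CPM in IBC and 13.99 ± 8.94 CPM in vector libraries. Of 9 other receptors tested none was higher and 1 was lower in TNBS than in vector (median -0.18), near the 7.32% of all tested genes that were lower. That was Ackr4, a scavenging receptor, with 3.05 ± 1.29 CPM in TNBS, 4.00 ± 1.38 CPM in IBC and 6.64 ± 2.57 CPM in vector libraries. Within the ligand cluster, Pf4 averaged 29.5 ± 27.2 FPKM in TNBS, 25.4 ± 8.83 FPKM in IBC and 7.21 ± 2.71 FPKM in vector libraries, while Cxcl15 had at most 17, 7 and 13 counts in the same groups and was not tested.

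Markers of other cell types were counted beside the chemokines. Genes of squamous epithelium, such as that of the anal margin, summed to 3.53 to 190 CPM in TNBS, 5.34 to 43.0 CPM in IBC and 2.51 to 6.53 CPM in vector libraries. Of 6 tested, 4 had an unadjusted p under 0.05 with a higher level in TNBS than in vector (median 3.31), where 10.4% of all tested genes did, and 4 in IBC against vector (median 2.78), where 4.9% did. Krt14, a basal keratin, had a median of 4.73 CPM (0.747 to 105) in TNBS, 9.31 CPM (1.68 to 23.0) in IBC and 0.977 CPM (0.557 to 3.19) in vector libraries. Of 10 monocyte and macrophage genes 4 were higher at that threshold in TNBS than in vector (median 0.67; 10.4% of all tested genes) and 6 in IBC than in vector (median 0.75; 4.9%). Ccr2, the receptor that draws monocytes in, averaged 11.02 ± 6.15 CPM in TNBS, 20.1 ± 13.0 CPM in IBC and 3.37 ± 1.14 CPM in vector libraries (SD, n = 6 each). Sele, the endothelial selectin that catches rolling neutrophils, averaged 0.359 ± 0.230 CPM in TNBS, 0.346 ± 0.253 CPM in IBC and 0.0294 ± 0.0483 CPM in vector libraries. It was 1 of 2 endothelial genes of 7, with Selp, that were higher at an unadjusted p under 0.05 in TNBS than in vector (median 0.08), and 2 of the 7 were higher in IBC than in vector (median 0.37). Of 7 fibroblast genes 1 was higher at that threshold in TNBS than in vector (median 0.47) and 5 in IBC than in vector (median 1.04). Of 6 smooth muscle genes none had a positive fold change against vector in TNBS (1 lower at that threshold, median -0.59) or in IBC (2 lower, median -0.33). Of 5 mast cell genes 1 was higher in TNBS (median 0.77) and 2 in IBC (median 0.80) than in vector. Of all tested genes, 10.4% were higher and 7.32% lower in TNBS than in vector, and 4.9% were higher in IBC than in vector. The share lower in IBC than in vector is not given here, so the 2 lower smooth muscle genes have no value beside them. Of 10 colon epithelium genes none passed an unadjusted p of 0.05 in TNBS against vector (median 0.07). The part of these cell types in the chemokine values was not tested.

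The genes whose levels ran most like each member, by Spearman's rho of log2 CPM over 18 libraries (prior count 2), are given as a description; each member's 5 nearest genes are named. Closest to Cxcl1 were Cxcl2 (0.931) and Ccl3 (0.927), a chemokine of macrophages, then Ifitm1, Mmp8 and Il1b. After Cxcl1, the genes closest to Cxcl2 were S100a9 (0.913), Cstdc4, Ifitm1 and Gm39459. Cxcl3 was nearest to Ppbp (0.914), Mmp9 (0.901), S100a9 (0.900), Emilin2 and Ccl24. Cxcl5 was nearest to Mmp9 (0.940), a gelatinase of neutrophil granules, then Hdc (0.917), Fpr1 (0.910), Ptpn1 and Rnf183. Ppbp was nearest to Il11 (0.941), a cytokine of stromal cells, S100a9 (0.931), Slc11a1 (0.925), Cyp21a1 and F630028O10Rik. Cxcr2 was nearest to Nt5c1a (0.936), Mmp10 (0.930), Sele (0.914), Padi1 and Lilrb4a. These values include the gap between vector and the other groups and say nothing of shared control.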

How the data were processed

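Polyadenylated RNA of mouse colon was selected on oligo(dT) beads, per the labels' protocols, and reads were trimmed with cutadapt 1.9, per the submitters' processing notes. No source used here names the aligner, counting program, annotation or build. Per the file headers, the deposited table gives a count and an FPKM value for each gene and library; the authors' FPKM were used for levels between genes, and the deposited counts for tests. All value columns were used.

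The members and gene lists were chosen with earlier results of these data known, so lists are described by counts and medians beside all genes. After filterByExpr (edgeR 4.0.16) and TMM scaling of totals, edgeR's quasi-likelihood test was fitted to 18 libraries with a mean per group, two-sided, with Benjamini-Hochberg adjustment over 20855 genes and a threshold of 0.05. Totals of 55.7 to 78.9 in units of 1e6 counts set the precision; no limit is given for a count of 0, since counts per fragment are unknown. The method was tested on simulated data. Libraries were checked for duplicates, and none were found. They were also checked for pairing: 7 of 18 same-numbered pairs correlated above 0.1, the highest at 0.49 (TNBS 2 with IBC 2). That does not settle whether libraries are paired. The fit is unpaired because the labels state no pairing. Hoxb13 at 10 CPM split libraries by position. Named genes are the 6 members, the 3 genes of smallest unadjusted p in TNBS against vector of each list, of which a selection is printed, 8 fixed genes, and the 5 genes most like each member. List members at 0 were named after their values were seen, and Ly6g and Cd177 were named outside these rules. limma 3.58.1 and DESeq2 1.42.0 served alternatives, run in R 4.3.3 with data.table (version 1.17.8).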

Additional observations from a re-analysis of the deposited data

Results flagged for a closer look

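In 8 of 18 sets of 6 libraries (6 genes in 3 groups), the highest library stood apart from the others by more than Dixon's 95% critical value, where chance flags about 1 in 20 sets of normally distributed values. That rate was not set for skewed levels near 0 such as these. In the TNBS and IBC groups these were Cxcl5 in TNBS 5 at 53.7 CPM (next TNBS library 9.17 CPM), Cxcl1 in IBC 1 at 7.02 CPM (next IBC library 2.28 CPM) and Cxcl3 in IBC 1 at 6.80 CPM (next 2.44 CPM). In the vector group they were Cxcl1 in vector 5 at 0.552 CPM (next 0.342 CPM), Ppbp in vector 1 at 0.219 CPM (next 0.0506 CPM) and Cxcr2 in vector 1 at 0.219 CPM (next 0.0649 CPM). Cxcl2 in vector 3 at 0.0790 CPM and Cxcl3 in vector 6 at 0.0714 CPM were the only vector libraries with counts of those genes, so the gap equals the whole range there by construction. None of the 18 interactions with position along the colon was called.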

How the results depend on the processing

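The fold changes of TNBS against vector stayed positive for all 6 members under every alternative in which they had a value. Those of IBC against vector did so except Cxcr2 in libraries low in Hoxb13 (-0.16). Of 27 alternatives, Cxcl2 had a value in 26 and Cxcl3 in 25 in each of these comparisons. Cxcr2 had a value in 26 in IBC against vector. Calls depended on the tool and the libraries. In TNBS against vector, where edgeR called 4 genes, DESeq2 called 560, a Hox covariate 125, library weights 9, quantile normalization 7 and a stricter filter 2. No gene was called with no filter, limma on log2 FPKM at pseudocounts of 0.1, 0.01 or 1, the 2 groups alone, counts divided by 4, or libraries high or low in Hoxb13 alone. Members called, 0 as reported, were 6 by DESeq2 and 3 with the Hox covariate. In IBC against vector (0 genes) DESeq2 called 196, the 2 groups alone 8, the Hox covariate 42, libraries high in Hoxb13 30 and library weights 610, and members called were 6 by DESeq2 and 1 with the Hox covariate. In IBC against TNBS (0 genes) DESeq2 called 6. The cause was not tested. Leaving out each library gave 0 to 323 genes and 0 to 5 members in TNBS against vector (both highest without TNBS 6), 0 to 5 genes and 0 to 0 members in IBC against vector, and 0 to 1 genes and 0 to 0 members in IBC against TNBS. In alternatives chosen after seeing the data, members above vector without overlap in TNBS (3; 0.432% of tested genes) were 6 in libraries low in Hoxb13 (22.7% of tested genes) and 3 to 5 leaving out each library (0.465% to 3.07%; 5, with 3.07%, without TNBS 6). For IBC (1; 0.446%) they were 2 by FPKM (1.12%), 6 in libraries high (6.8%) and 3 in libraries low in Hoxb13 (23.9%), and 1 to 4 leaving out each library (0.494% to 1.24%; 4, with 1.24%, without IBC 2, and 2 without IBC 4, vector 1 or vector 3).

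IBC against TNBS changed sign for several members. In libraries low in Hoxb13 it was -1.19 for Cxcl2, -2.35 for Cxcl3, -2.47 for Ppbp and -3.75 for Cxcr2, with library weights 0.96 for Cxcl5, and leaving out each library -1.39 to 1.24 for Cxcl5 and -0.059 to 0.89 for Ppbp. With the replicate number as a block, a replicate pairing the labels do not state, it was 0.11 for Cxcl5 and -0.012 for Ppbp; the block called 1 gene in TNBS against vector and no member in any comparison. The stricter filter left 5 members (without Cxcl3). Low counts of Cxcl2, Cxcl3, Ppbp and Cxcr2 in vector libraries limit the precision of their folds.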
